A study of Mus musculus with 6 samples.

Results

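Chemokines and their receptors are the 52 genes described here, of 19938 genes measured in primary mouse hepatocytes with and without depletion of RetSat, an oxidoreductase that acts on retinol. They were taken by name, as every gene whose only symbol in the array annotation is that of a CC, CXC, XC or CX3C ligand or receptor. They comprised 34 ligands and 18 receptors, each read from its brightest probe set. Hepatocytes, the metabolic cells of the liver, came from a wild-type male C57BL/6J mouse aged 10 weeks. All cells were kept in medium with 25 mM glucose and received 1 nmol of siRNA overnight. The siRNA was directed against RetSat in siRetSat cells and was a control in siControl cells, with 3 transfections of each. Fresh medium followed in the morning, and 48 h later RNA was isolated and hybridised to Affymetrix mouse gene arrays. Since the cells came from 1 mouse, p-values measure the spread between transfections, and other effects of the siRNA against RetSat cannot be told apart from loss of RetSat. Retsat itself had log2 values of 4.62, 4.83 and 4.81 in siRetSat, against 6.80, 7.04 and 7.01 in siControl, a log2 fold change of -2.20 (limma adjusted p = 0.000112).

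Chemokines are small secreted proteins that draw leukocytes along a gradient. They are named by the spacing of their first cysteines, and they act through G protein-coupled receptors carried mainly by the leukocytes they attract. Hepatocytes are not leukocytes, but in an inflamed or virus-infected liver they release several chemokines. CXCL10 and CCL5 are classically induced by interferons and by NF-kB, CCL2 by NF-kB. In whole RNA from a culture, fewer cells of a type and less RNA per cell cannot be told apart.

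In RetSat-depleted hepatocytes 6 ligands rose and 1 receptor fell. Ccl5, Cxcl10, Ccl2, Cxcl13, Cxcl16 and Cxcl9 were higher and Cxcr4 was lower at an adjusted p under 0.05 from limma (lmFit and eBayes, Benjamini-Hochberg over all 19938 genes). The 6 are 11.5% of the 52 genes, beside 1.91% of all genes called higher. The 1 is 1.92% of the 52, a share near the 1.66% of all genes called lower. The median log2 fold change was 0.07 over the 52 genes and 0.00 over all genes. All 3 siRetSat values lay above all 3 siControl values for 15 of the 52 genes (28.8%, beside 9.33% of all genes) and below them for 2 (3.85%, beside 10.1%). An unadjusted p under 0.05 was reached by 12 of the 52 upward and 2 downward, beside 6.98% and 7.52% of all genes. With the study's minimum fold change added (0.32 in size on the log2 scale), 10 were higher and 2 lower, beside 4.47% and 4.58% of all genes. Of the 52 genes, 34 were dim, with a mean log2 value at or under 4.33, the 40th percentile of all genes, and changes in these could be missed. The 7 called genes had means above that value in both groups, so they are 6 higher and 1 lower of the 18 brighter genes, beside 3.04% and 2.73% of all 11960 genes above it.

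**Figure D1:**
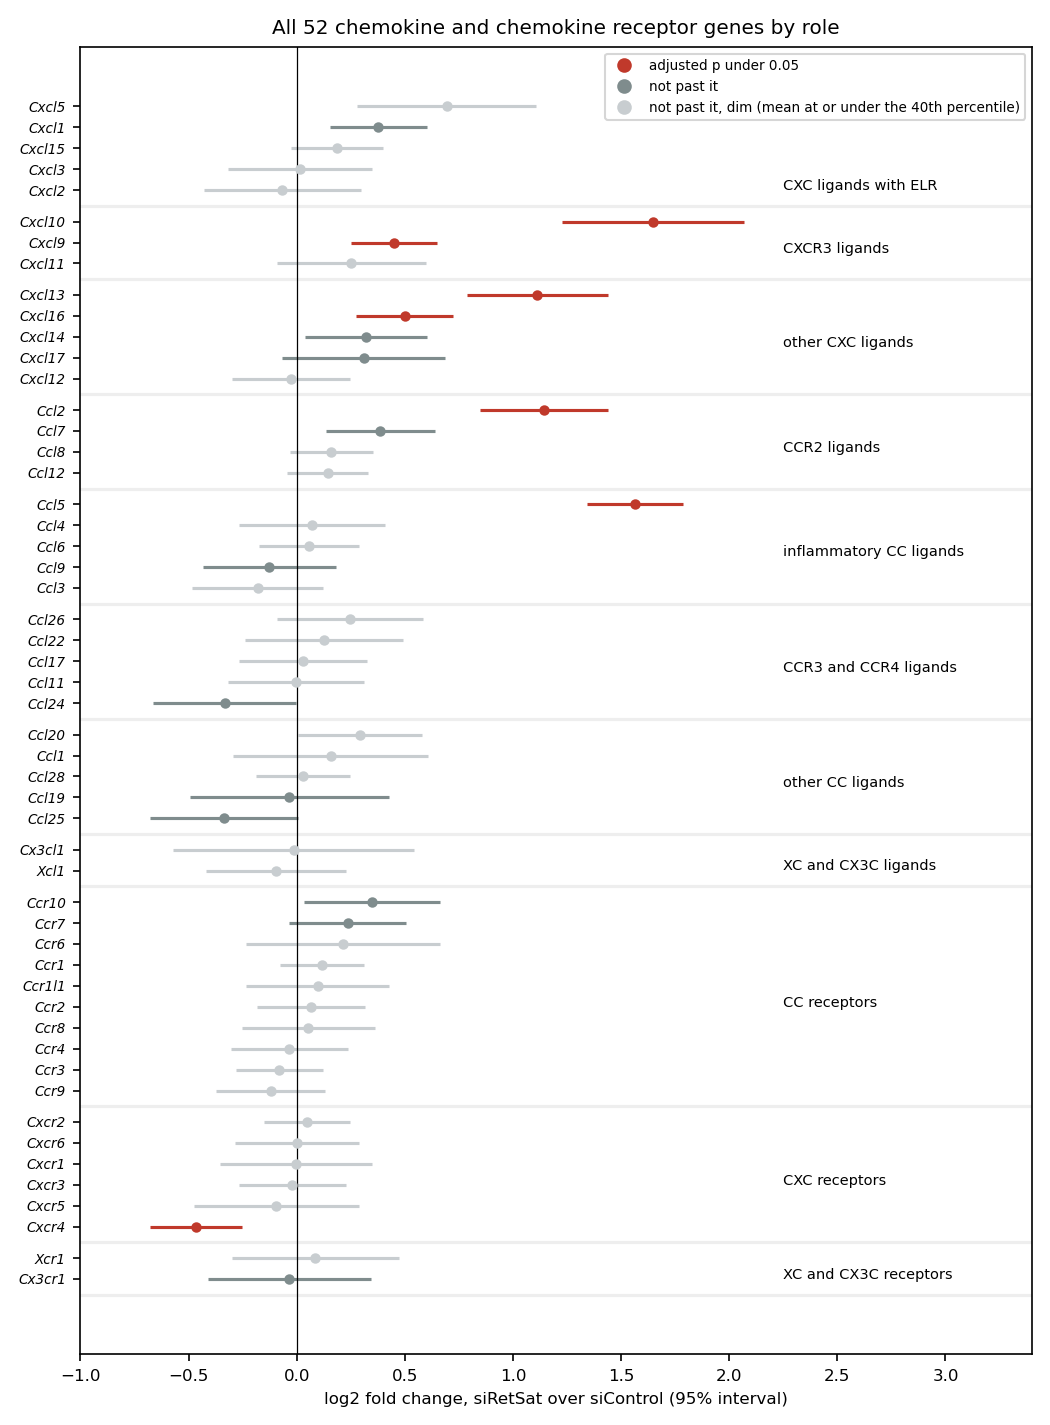
Each point is the log2 fold change of siRetSat over siControl (x axis) of 1 of the 52 genes, with its 95% interval, grouped by role down the page; red points passed an adjusted p of 0.05. Cxcl10 at 1.65, Ccl5 at 1.56, Ccl2 at 1.14 and Cxcl13 at 1.11 lie farthest to the right, and Cxcr4 at -0.47 farthest to the left.

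The stretches that lead into these genes are shown for 4 ligands and for the receptor that fell. They are marked for letters known to be bound by interferon-activated factors and by NF-kB. Whether these factors changed the genes here was not tested. Each runs from 250 bases before to 50 bases after the gene start on the gene's own strand, from RefSeq on GRCm38.p6. Capitals mark 2 motifs, each searched on both strands: GAAA, then 2 bases of any kind, then GAAA, a core of the interferon-stimulated response element, and GGGA, then 4 bases of any kind, then CC, a core of the NF-kB site. Positions are those of the first base of a match as printed.
Cxcl10, chr5:92348840-92349139, minus strand: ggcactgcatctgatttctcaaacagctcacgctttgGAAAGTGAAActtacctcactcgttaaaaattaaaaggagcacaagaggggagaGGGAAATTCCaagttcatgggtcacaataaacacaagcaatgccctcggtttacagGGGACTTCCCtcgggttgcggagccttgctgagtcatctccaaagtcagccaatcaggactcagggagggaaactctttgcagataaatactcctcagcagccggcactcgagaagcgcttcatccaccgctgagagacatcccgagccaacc
Cxcl9, chr5:92328030-92328329, minus strand: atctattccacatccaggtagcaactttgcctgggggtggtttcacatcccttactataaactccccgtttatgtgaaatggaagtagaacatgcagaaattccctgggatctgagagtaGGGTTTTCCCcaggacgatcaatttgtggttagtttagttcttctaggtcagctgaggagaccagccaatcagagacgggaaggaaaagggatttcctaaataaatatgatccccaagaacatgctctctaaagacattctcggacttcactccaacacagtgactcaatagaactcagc
Cxcl13, chr5:95956689-95956988, plus strand: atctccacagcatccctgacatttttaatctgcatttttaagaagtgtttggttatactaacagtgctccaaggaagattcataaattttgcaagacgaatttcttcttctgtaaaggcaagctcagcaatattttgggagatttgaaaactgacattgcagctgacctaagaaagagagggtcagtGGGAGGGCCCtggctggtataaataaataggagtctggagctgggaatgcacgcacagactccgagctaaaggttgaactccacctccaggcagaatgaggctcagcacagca
Cxcl1, chr5:90890995-90891294, plus strand: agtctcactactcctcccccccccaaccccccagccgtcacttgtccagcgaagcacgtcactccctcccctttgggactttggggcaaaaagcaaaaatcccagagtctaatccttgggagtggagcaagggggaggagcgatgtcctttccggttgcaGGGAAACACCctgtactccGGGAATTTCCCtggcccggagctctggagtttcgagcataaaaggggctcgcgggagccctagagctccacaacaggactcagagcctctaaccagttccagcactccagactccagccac
Cxcr4, chr1:128592250-128592549, minus strand: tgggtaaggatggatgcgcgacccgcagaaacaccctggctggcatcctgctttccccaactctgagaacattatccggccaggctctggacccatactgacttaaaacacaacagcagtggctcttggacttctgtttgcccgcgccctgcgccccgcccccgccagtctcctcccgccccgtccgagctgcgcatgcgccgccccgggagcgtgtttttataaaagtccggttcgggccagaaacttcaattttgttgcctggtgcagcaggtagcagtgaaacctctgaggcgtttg
Cxcl10 held the interferon core 213 bases before its start and the NF-kB core at 159 and 103 bases before it, with the last site matching on both strands. Cxcl9 held only the NF-kB core, on the opposite strand at 130 bases, and Cxcl13 only that core, at 63 bases. Cxcl1, a ligand that did not pass the test here, held the NF-kB core at 90 and 71 bases, the second with an overlapping match on the other strand at 70 bases. Neither motif was found in the window of Cxcr4, and the motifs shared no base in the 5 windows printed. Of the 52 genes 38 had such a stretch, 40 stretches in all. Ccl5, Ccl2 and Cxcl16, which rose, were not among the 38 and were not searched. The interferon core was in 3 of the 40 (Cxcl10, Cxcl14 and Ccl19), beside 3.44% of 32851 stretches of the same length. The NF-kB core was in 16 of the 40, beside 20.7% of all. Of the 16 genes with it, Cxcl10, Cxcl9 and Cxcl13 rose and all others did not pass, Cxcl2 among them, at a log2 fold change of -0.07 (limma adjusted p = 0.943). Of those that did not pass, only Cxcl1 and Ccl19 lay above the 40th percentile. The rest, Cxcl2 included, were dim, so changes in them could be missed. Of the 3 genes with the interferon core, Cxcl10 alone passed. A match is a match of letters, and binding was not measured.

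Cxcl10 and Cxcl9 rose, and Cxcl11 did not pass. CXCL9, CXCL10 and CXCL11 are the ligands of CXCR3, a receptor of activated T cells and NK cells. Cxcl10 had log2 values of 8.12, 8.19 and 8.83 in siRetSat, against 6.67, 6.65 and 6.88 in siControl. The groups lay far apart, and siRetSat 3 was the highest array. This was a 3.13-fold rise (95% interval 2.34 to 4.20; log2 fold change 1.65, standard error (SE) 0.184, limma adjusted p = 0.00336). Without siRetSat 3 the log2 fold change of Cxcl10 was 1.42 and still passed. Cxcl9 had log2 values of 5.08, 5.15 and 5.12 in siRetSat, against 4.75, 4.67 and 4.58 in siControl, without overlap. Its rise was smaller, at 1.37-fold (log2 fold change 0.45, SE 0.0863, limma adjusted p = 0.0302). The call of Cxcl9 was kept in 2 of 6 analyses that each omit a single array, those without siRetSat 1 and without siControl 1. Cxcl11 is annotated as a transcribed pseudogene in the C57BL/6J reference, and it was dim, at 3.99, 3.59 and 3.79 in siRetSat, against 3.81, 3.46 and 3.34 in siControl. Its log2 fold change was 0.25 (limma adjusted p = 0.542). The receptor gene Cxcr3 was dim as well, averaging 3.69 ± 0.08 in siRetSat and 3.71 ± 0.17 in siControl (SD, n = 3 each).

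Ccl5 had the smallest adjusted p among the ligands that rose, and related CC ligands did not pass. CCL5 (RANTES) attracts T cells, monocytes and other leukocytes through CCR1 among other receptors. It had log2 values of 7.42, 7.31 and 7.38 in siRetSat, against 5.95, 5.78 and 5.69 in siControl. The lowest siRetSat array lay well above the highest siControl array. The rise was 2.96-fold (95% interval 2.53 to 3.45; log2 fold change 1.56, SE 0.0971, limma adjusted p = 0.000255), and it was the only gene of the 52 that passed in all 17 alternative analyses. Of Ccl3, Ccl4, Ccl6 and Ccl9, further inflammatory CC ligands, none passed. Their log2 fold changes lay between -0.18 for Ccl3 and 0.07 for Ccl4. Ccl9 was the only one of these 4 above the 40th percentile, at 5.10, 5.30 and 5.39 in siRetSat, against 5.17, 5.62 and 5.38 in siControl, and its groups overlapped. Its log2 fold change lay between -0.24 without siControl 1 and -0.012 without siControl 2. The receptor gene Ccr1 was dim, averaging 2.79 ± 0.08 in siRetSat and 2.67 ± 0.04 in siControl (SD, n = 3 each).

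Ccl2 rose, whereas the other ligands of CCR2 did not pass. CCL2 (MCP-1) is the main attractant of CCR2-bearing monocytes. Its log2 values were 7.97, 8.31 and 8.35 in siRetSat, against 7.06, 6.93 and 7.21 in siControl, without overlap. The rise was 2.21-fold (95% interval 1.80 to 2.71; log2 fold change 1.14, SE 0.128, limma adjusted p = 0.00338). Ccl7 (MCP-3) had log2 values of 5.20, 5.52 and 5.36 in siRetSat, against 5.09, 4.90 and 4.93 in siControl. These did not overlap either, but the lowest siRetSat value was close to the highest siControl value. Ccl7 had a log2 fold change of 0.39 (SE 0.109, limma adjusted p = 0.120) and passed in 2 of 17 alternatives, with array weights, at 0.55 (adjusted p = 0.00219), and without both arrays numbered 1, at 0.53 (adjusted p = 0.0358). Ccl8 and Ccl12 were dim in both groups. Their log2 fold changes were 0.16 and 0.14 (limma adjusted p = 0.464 and 0.519), with no overlap between the groups of either. The receptor gene Ccr2 was dim, averaging 2.79 ± 0.11 in siRetSat and 2.72 ± 0.15 in siControl (SD, n = 3 each).

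Cxcl13 and Cxcl16 rose as well, and their receptor genes were dim. CXCL13 guides B cells through CXCR5. Cxcl13 had log2 values of 6.63, 6.75 and 6.95 in siRetSat, against 5.43, 5.64 and 5.92 in siControl, so the groups lay apart by more than their own spread. The rise was 2.16-fold (95% interval 1.73 to 2.71; log2 fold change 1.11, SE 0.142, limma adjusted p = 0.0056). CXCL16 is made as a membrane-bound protein that binds CXCR6 and is shed by proteases. Cxcl16 had log2 values of 8.22, 8.32 and 8.35 in siRetSat, against 7.67, 7.79 and 7.93 in siControl, with no overlap. The rise was 1.41-fold (95% interval 1.21 to 1.65; log2 fold change 0.50, SE 0.0979, limma adjusted p = 0.0323). With a single array omitted, the call of Cxcl16 was kept in 1 of 6 analyses, that without siRetSat 1. Cxcr5 averaged 2.76 ± 0.30 in siRetSat and 2.85 ± 0.20 in siControl, and Cxcr6 averaged 3.27 ± 0.19 in siRetSat and 3.27 ± 0.15 in siControl (SD, n = 3 each).

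**Figure D2:**
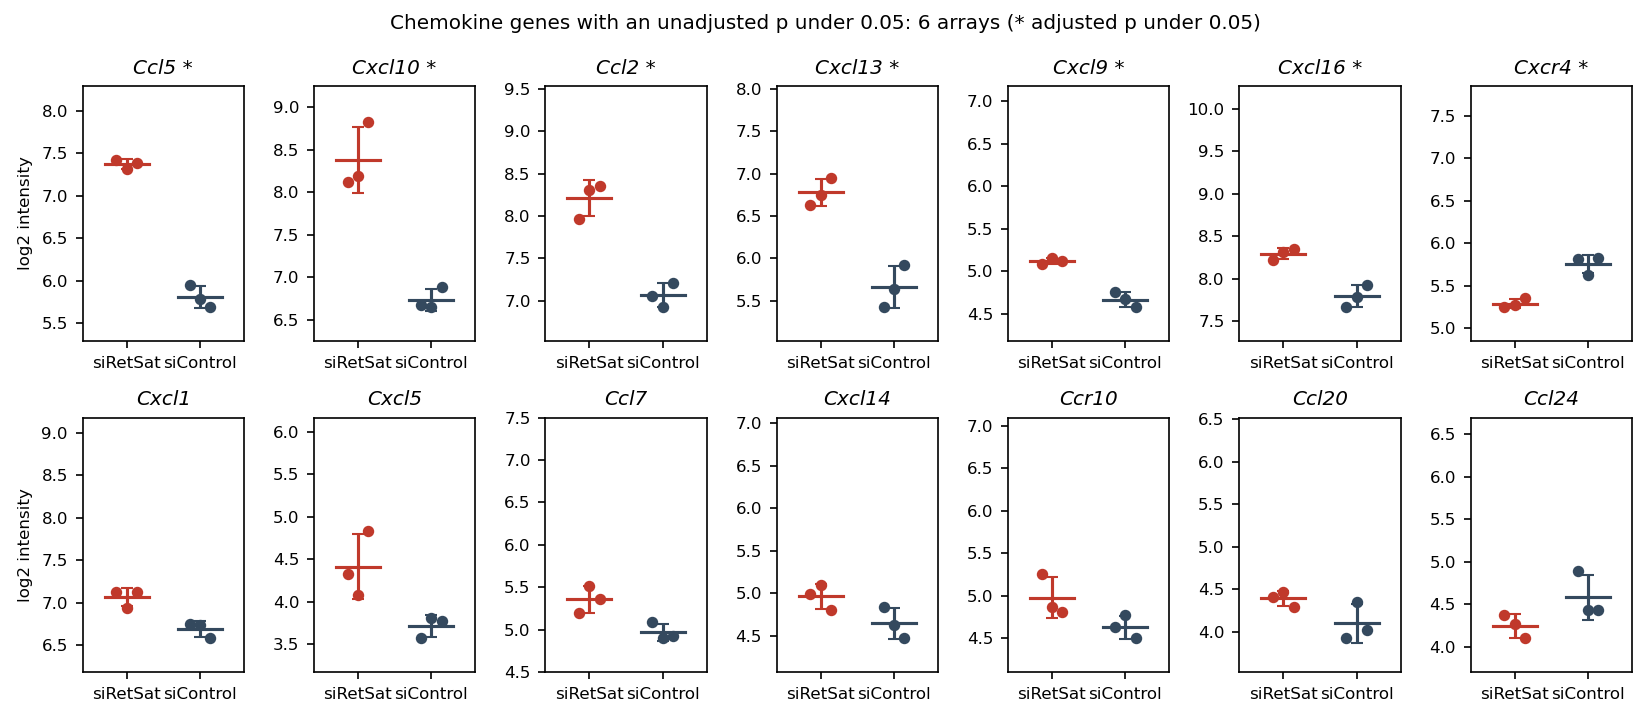
Each dot is the log2 intensity (y axis) of 1 array, siRetSat left and siControl right, for the 14 genes with an unadjusted p under 0.05; horizontal bars are means, vertical bars 1 SD (n = 3), every panel spans the same log2 range, and a star marks an adjusted p under 0.05. The siRetSat dots of Ccl5 lie between 7.31 and 7.42, above all siControl dots, and those of Cxcr4 between 5.25 and 5.35, below all siControl dots.

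Cxcr4 fell, as the only receptor gene called. CXCR4 is the receptor of CXCL12, which holds blood stem cells and leukocytes in their niches. Cxcr4 had log2 values of 5.25, 5.27 and 5.35 in siRetSat, against 5.81, 5.63 and 5.83 in siControl, without overlap. The level was 0.724-fold that of siControl (95% interval 0.625 to 0.838; log2 fold change -0.47, SE 0.0922, limma adjusted p = 0.0336). Cxcr4 passed in none of 6 analyses with a single array omitted, with log2 fold changes from -0.53 to -0.43 and adjusted p from 0.0663 to 0.152. Its ligand gene Cxcl12 was dim, at 3.97, 4.12 and 3.83 in siRetSat, against 4.19, 3.92 and 3.89 in siControl, and the groups overlapped. The other 17 receptor genes did not pass, and 14 of them were dim. Ccr10, Ccr7 and Cx3cr1 were the brighter ones. Ccr10, a receptor of skin-homing and mucosal lymphocytes, had log2 values of 5.26, 4.87 and 4.81 in siRetSat, against 4.63, 4.77 and 4.50 in siControl. Its groups did not overlap, and its log2 fold change was 0.35 (limma adjusted p = 0.289), or 0.21 without siRetSat 1. Ccr7, which leads T cells and dendritic cells to lymph nodes, had a log2 fold change of 0.24 (limma adjusted p = 0.434), or 0.13 without siControl 3, and Cx3cr1, a monocyte receptor, had a log2 fold change of -0.03 (limma adjusted p = 0.980).

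None of the 5 CXC ligands with an ELR motif, which attract neutrophils through CXCR2, passed the test. Cxcl1 came closest, with log2 values of 7.13, 6.94 and 7.13 in siRetSat, against 6.75, 6.74 and 6.58 in siControl. All siRetSat arrays were above all siControl arrays, at a log2 fold change of 0.38 (SE 0.0976, limma adjusted p = 0.0896). Cxcl5 had log2 values of 4.33, 4.08 and 4.83 in siRetSat, against 3.57, 3.81 and 3.78 in siControl, again without overlap. Its log2 fold change was 0.69 (SE 0.181, limma adjusted p = 0.0912), and its siControl mean of 3.72 was dim. Cxcl15, Cxcl3 and Cxcl2 were dim, with log2 fold changes of 0.19, 0.02 and -0.07. The receptor genes Cxcr1 and Cxcr2 were dim, with log2 fold changes of -0.0033 and 0.047.

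Among the remaining ligands, which serve mostly mucosal, lymphoid or allergic traffic, none passed. Ccl25, the CCR9 ligand of gut-homing T cells, had log2 values of 6.68, 6.90 and 7.15 in siRetSat, against 7.01, 7.32 and 7.41 in siControl. The groups overlapped, at a log2 fold change of -0.34 (limma adjusted p = 0.356), or -0.22 without siRetSat 1, and a second, dimmer probe set of the gene gave -0.13. Ccl24 (eotaxin-2) had log2 values of 4.38, 4.27 and 4.10 in siRetSat, against 4.89, 4.43 and 4.43 in siControl. Its groups did not overlap, at a log2 fold change of -0.33 (limma adjusted p = 0.342), or -0.18 without siControl 1. Cxcl14, an epithelial ligand, had log2 values of 4.99, 5.10 and 4.81 in siRetSat, against 4.84, 4.63 and 4.47 in siControl. The lowest siRetSat array lay under the highest siControl array, and the log2 fold change was 0.32 (limma adjusted p = 0.272). Ccl20, the CCR6 ligand, was dim, at a log2 fold change of 0.29 (adjusted p = 0.333), and Cxcl17 had a log2 fold change of 0.31 (limma adjusted p = 0.473), or 0.14 without siControl 3. Ccl19, a CCR7 ligand, had a log2 fold change of -0.03 (limma adjusted p = 0.983) and 5 probe sets, which gave between -0.13 and -0.03. The other 8 ligands, all dim, had log2 fold changes from -0.10 for Xcl1 to 0.25 for Ccl26. Ccl21 and Ccl27 have near-identical copies, and their 7 probe sets, which name several genes each, stood outside the gene-level test. In a fit of all probe sets those of Ccl21 gave a log2 fold change of 0.16 (adjusted p = 0.797) and those of Ccl27 one of -0.11 (adjusted p = 0.851 and 0.867).

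Genes that rose lay beside chemokine genes that did not pass. In chromosome order by RefSeq, Ccl2 is followed by Ccl7, Ccl11, Ccl12, Ccl8 and Ccl1, whose log2 fold changes were 0.39, -0.0033, 0.14, 0.16 and 0.16. Ccl5 is followed by Ccl9, Ccl6, Ccl3 and Ccl4, at -0.13, 0.06, -0.18 and 0.07. Cxcl9, Cxcl10 and Cxcl11 lie in a row with Art3 between the first pair, and Art3 had a log2 fold change of 0.02 (limma adjusted p = 0.979). Except for Ccl7 and Ccl9, the chemokine genes here that did not pass were dim, so changes in them could be missed. The differences between neighbours were not tested.

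**Figure D3:**
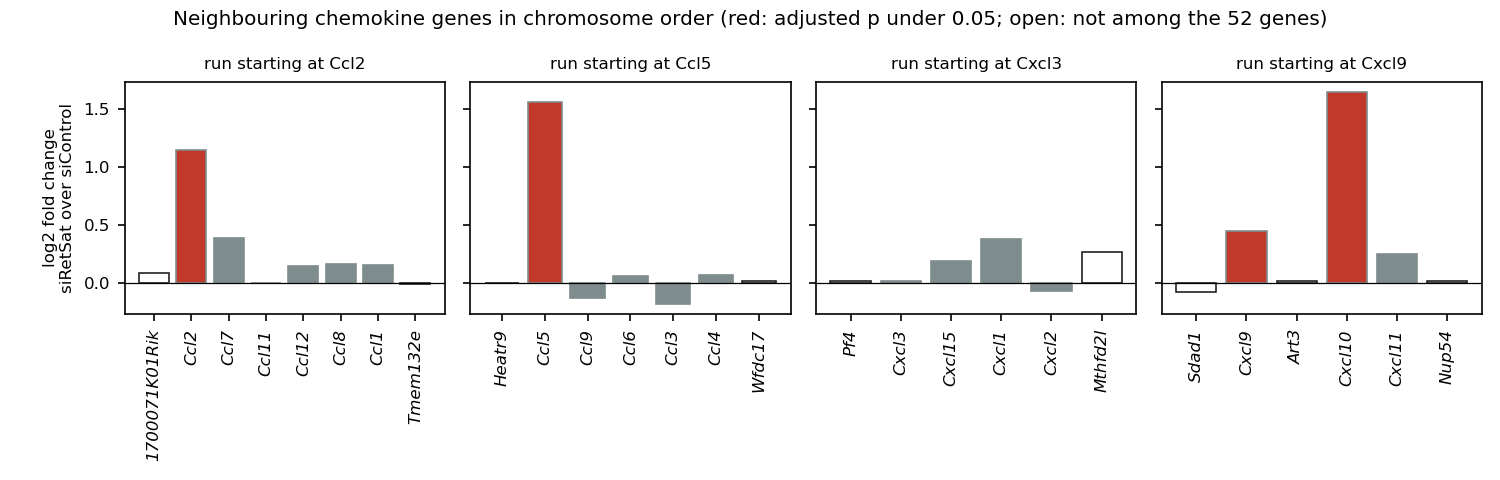
Bars are the log2 fold change of siRetSat over siControl (y axis) of genes in chromosome order (x axis) in 4 runs of chemokine genes, with the next gene on either side as an open bar. Ccl2 at 1.14, Ccl5 at 1.56, Cxcl9 at 0.45 and Cxcl10 at 1.65 are red (adjusted p under 0.05), and the grey bars beside them did not pass. Of the genes with grey bars, all but Ccl7, Ccl9 and Cxcl1 were dim.

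Genes known to act around the chemokines were read from 6 lists, of which 103 genes were measured, 11 rose and 2 fell, beside 1.91% and 1.66% of all genes. The share that fell is near that of all genes. The lists were chosen with earlier results of these data known, so these shares and the medians describe the lists and test nothing. Of 7 interferon-induced genes that commonly rise with CXCR3 ligands 5 rose, with Ifit3 at a log2 fold change of 4.06 and Rsad2 at 2.31, Ifit1 at 1.42, Oasl1 at 1.18 and Ifit2 at 1.04. The list median was 1.18, beside 0.00 over all genes. Of 16 interferon inputs 2 rose, the transcription factors Irf7 and Stat2. Irf7 had log2 values of 10.21, 10.08 and 10.23 in siRetSat, against 9.21, 9.20 and 9.19 in siControl, a log2 fold change of 0.97 (limma adjusted p = 0.00128). Stat2 had a log2 fold change of 0.43 (limma adjusted p = 0.0410) and did not pass with any single array omitted. Of 4 interferon genes in this list none passed, and Ifnb1, Ifng and Ifna4 were dim. Ifnb1 was at 3.74, 3.63 and 3.51 in siRetSat, against 3.81, 3.66 and 3.57 in siControl, and Ifng averaged 3.37 ± 0.17 in siRetSat and 3.39 ± 0.02 in siControl (SD, n = 3 each). Ifnl2, an interferon lambda gene, was brighter, at 8.13, 7.64 and 7.19 in siRetSat, against 7.80, 7.53 and 6.97 in siControl. Its groups overlapped, at a log2 fold change of 0.22 (limma adjusted p = 0.850).

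Of 23 measured NF-kB inputs and feedback genes 2 rose and 2 fell. Tlr3, the endosomal sensor of double-stranded RNA, had log2 values of 6.05, 6.46 and 6.62 in siRetSat, against 5.05, 5.14 and 5.16 in siControl. Its log2 fold change was 1.26 (limma adjusted p = 0.00368), without overlap. Tlr2, a sensor of bacterial lipoproteins, rose by 0.63 on the log2 scale (adjusted p = 0.0196). The kinase gene Ikbkb and the inhibitor gene Nfkbib fell, at -0.40 each (adjusted p = 0.0464 and 0.0356), and both calls were lost whichever single array was omitted. Tnf was dim, with a log2 fold change of 0.49 (adjusted p = 0.143). Of 15 atypical receptors and chemokines with other names 2 rose: Rarres2, which encodes the attractant chemerin, at 0.62 (adjusted p = 0.0278), and Cmtm3, a MARVEL-domain gene, at 0.72 (adjusted p = 0.0253). Ccrl2, which encodes a non-signalling receptor that binds chemerin, had log2 values of 4.85, 5.19 and 5.17 in siRetSat, against 4.69, 4.49 and 4.57 in siControl, a log2 fold change of 0.49 (adjusted p = 0.0683). Omitting a single array, Tlr3 passed in 6 of 6 analyses, Ifit2 in 3, Tlr2 and Cmtm3 in 2 and Rarres2 in 1. None of 26 genes of signalling below the receptors passed, nor did any of 16 genes of proteases, shedding and matrix binding. Among the 16, Dpp4, whose protein trims and inactivates CXCL10, had a log2 fold change of 0.43 (limma adjusted p = 0.0560).

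**Figure D4:**
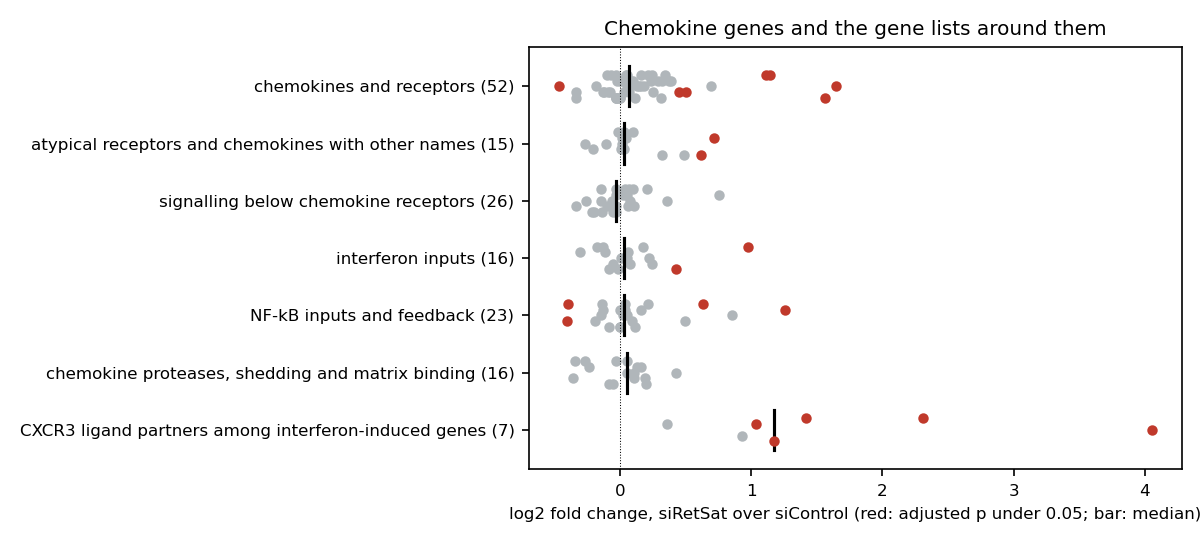
Each dot is the log2 fold change of siRetSat over siControl (x axis) of 1 gene, for the 52 chemokine and receptor genes and 6 lists around them (number of genes in brackets), red where the adjusted p was under 0.05, with a bar at each median. The median is 1.18 for the 7 interferon-induced genes and between -0.03 and 0.07 in the other rows.

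Since leukocytes and other liver cells also make chemokines, their markers were read beside these results. Of all genes, 1.91% were called higher and 1.66% lower. Of 15 macrophage and Kupffer cell markers 1 rose, Cd14, at a log2 fold change of 0.59 (limma adjusted p = 0.0208), none fell, and 11 were dim, Adgre1, Csf1r, Vsig4, Marco and Timd4 among them. Their mean log2 value per array ranged from 4.53 to 4.66 in siRetSat, against 4.46 to 4.54 in siControl. The median log2 fold change of the 15 was 0.06. Lyz2, Cd163, Vsig4, Timd4, Marco and C1qc, all dim, were lower without passing, from -0.12 for Lyz2 to -0.0033 for C1qc. Clec4f, a Kupffer cell marker just above the 40th percentile, was at 4.62, 4.50 and 4.34 in siRetSat, against 4.45, 4.28 and 4.02 in siControl, and the bright marker Cd68 was at 11.54, 11.49 and 11.59 in siRetSat, against 11.15, 11.24 and 11.03 in siControl, a log2 fold change of 0.40 (adjusted p = 0.0563). No marker of T and NK cells (10 measured), B cells (5), neutrophils (8), dendritic cells (7), endothelial cells (8) or stellate cells and fibroblasts (8) passed. Of 5 bile duct markers Sox9 rose, at 0.45. Epcam, at 0.36, and Krt19, Krt7 and Cftr, at -0.20, -0.21 and -0.07, did not pass. Of 9 hepatocyte markers none rose and 4 fell, Cps1, Tat, Ahsg and Fgb, at log2 fold changes of -0.82, -0.72, -0.52 and -0.42. The other 5 did not pass, with Alb, Apoa1, Apoa2 and Hnf4a at 0.07, 0.11, 0.20 and 0.10 and Ttr at -0.10. The mean of the 9 per array ranged from 10.02 to 10.07 in siRetSat, against 10.22 to 10.39 in siControl. All 9 lay above the 40th percentile, where 3.04% of all genes were called higher and 2.73% lower. Omitting a single array, Cd14 passed in 2 of 6 analyses, Sox9 in 1, and each of the 4 hepatocyte genes that fell in at most 2. The part of these shifts in the chemokine results was not tested.

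Arrays numbered 1 stood apart from the others of their group in the whole data set, and the dim chemokine genes averaged highest on them. The 34 dim genes averaged 3.59, 3.36 and 3.37 in siRetSat, against 3.48, 3.39 and 3.24 in siControl, with the first array highest in both groups. For these genes siControl 2 lay closer to siControl 1 than to siControl 3. The 18 brighter genes averaged 5.93, 5.90 and 5.94 in siRetSat, against 5.58, 5.53 and 5.49 in siControl. Without both arrays numbered 1, a choice made after seeing the data, 7 of the 52 genes were higher and none lower. The added gene was Ccl7, and the receptor that no longer passed was Cxcr4, at -0.42 (adjusted p = 0.0841).

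**Figure D5:**
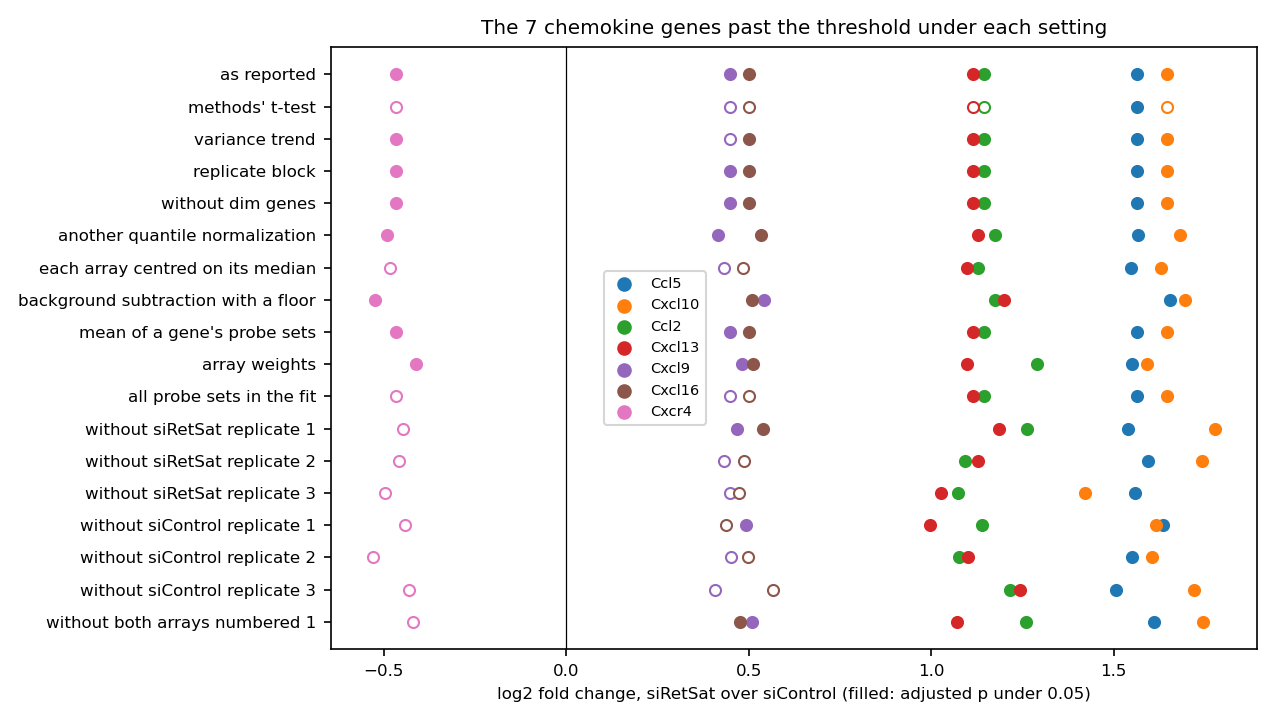
The log2 fold change (x axis) of the 7 called genes under each analysis setting (rows), filled where the adjusted p was under 0.05. Ccl5 stays filled in every row, Cxcl10, Ccl2 and Cxcl13 in all but the row of the methods' t-test, and Cxcl9, Cxcl16 and Cxcr4 are open in 8, 8 and 10 rows.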

How the data were processed

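Gene expression was measured on 6 Affymetrix arrays, 3 siRetSat and 3 siControl. The values deposited are log2 intensities, already normalized, of 35556 probe sets, from 1.46 to 13.7, with array medians from 4.29 to 4.50. RMA and Partek 6.6 are named in the submitters' processing notes. Filters and genome build were not given in these sources. The number of arrays limits the precision.

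A single gene symbol was carried by 21789 probe sets, several by 1621 and none by 12146. Entrez identifiers gave the current RefSeq symbol for 21698, and 91 kept the old symbol. Probe sets with several symbols or none stood outside the gene-level test. The brightest probe set over all arrays was used for each of 19938 genes.

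The difference siRetSat minus siControl was fitted without covariates in limma 3.58.1 under R 4.3.3. P-values were adjusted by Benjamini-Hochberg over all genes, and 0.05 was the threshold. The step was tested on simulated data with independent noise in each array. The simulation did not include the correlated deviations between arrays that are given in the closing section. Lists are described by counts and medians. Alternatives are given in the closing section. For a single gene, the smallest two-sided exact permutation p that 3 against 3 allow is 0.1.

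Genes were named if they passed an adjusted or unadjusted p of 0.05 or lay above the 40th percentile, with the markers Cxcl10 and Ccl2, examples of the dim genes and list genes past the threshold. Ccrl2, Dpp4, Tnf, Ifnb1, Ifng, Ifna4, Ifnl2, Cd68, Clec4f and Art3 are not covered by this rule and were picked with their values in view. Also outside it are Retsat as the targeted gene, the other measured bile duct and hepatocyte markers, and the dim macrophage markers that were lower. Members and lists were chosen with earlier results of these data known. Python 3.11.15 drew the plots, with pandas 2.3.3 and matplotlib 3.10.9.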

Additional observations from a re-analysis of the deposited data

How the results depend on the processing

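Ccl5 passed in all 17 alternatives, with log2 fold changes from 1.51 to 1.65. Cxcl10, Ccl2 and Cxcl13 passed in 16, with no call only by the methods' t-test (adjusted p = 0.0910, 0.0715 and 0.0974). None of the 7 called genes changed direction. Cxcl9 and Cxcl16 passed in 9 alternatives each and Cxcr4 in 7. With Benjamini-Hochberg adjustment, the methods' t-test called 1 of the 52 genes higher and 0 lower, and at the study's own cutoffs 9 higher and 1 lower. Centring each array on its median gave 4 higher and 0 lower, all probe sets in the fit 4 and 0, and array weights 9 and 2, with Ccl7, Cxcl1, Cxcl14 and Ccl25 added. At the study's cutoffs, 1 was lower without dim genes, after background subtraction with a floor and with all probe sets in the fit. Leaving out single arrays gave 4 to 6 higher and 0 lower, and 8 to 12 higher and 1 to 3 lower at the study's cutoffs. No gene was called lower without both arrays numbered 1. The median of the 52 genes was 0.33 over the 18 left without dim genes and 0.19 over the 24 left after background subtraction, which also changes the values, with Ccl20 at 0.040 and Cxcl5 at 0.18.

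The 710 genes called in all became 196 by the methods' t-test, 1078 with a variance trend, 342 with median centring, 2905 with array weights, 329 with all probe sets in the fit and 207 to 646 without single arrays. The 11 higher and 2 lower genes of the surrounding lists became 6 and 1 by the methods' t-test, 22 and 6 with array weights, 6 and 0 with all probe sets and 6 to 13 and 0 to 1 without single arrays. The lower count was 5 with a variance trend, 0 with median centring and 0 without both arrays numbered 1. Ccl19 turned to 0.014 with array weights, 0.11 without siRetSat 3, 0.16 without siControl 1 and 0.03 without both arrays numbered 1. Cx3cr1 turned to 0.048 after background subtraction, 0.11 without siRetSat 2 and 0.04 without siControl 1. Without single arrays Ccl19 ranged from -0.20 to 0.16 and Cx3cr1 from -0.21 to 0.11. Neither passed in any of these. The causes were not tested.

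With the replicate number as a block, 8 of the 52 genes were higher and 2 lower, 1541 genes were called in all, and the surrounding lists had 19 higher and 2 lower. The genes added were Cxcl1, Cxcl5 and Ccl25. Deviations from the group means correlated at 0.547, 0.0398 and 0.541 between arrays numbered 1, 2 and 3, so the numbers do not establish pairs. Array medians ran in the same order in both groups, at 4.50, 4.36 and 4.29 in siRetSat and 4.45, 4.36 and 4.29 in siControl. Whether arrays with the same number share a batch was not tested. Dim genes limit what can be seen, since 34 of the 52 lie at or under the 40th percentile.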
